A study of Homo sapiens with 6 samples.

Results

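The 42 genes described here encode interferons, the RNA sensors that lead to their production, the transcription factors that carry the signal and the antiviral proteins that interferon induces. They were chosen by name from knowledge of the pathway, out of 26835 genes listed for at least 1 of the 2 cell lines studied. No threshold on a measured value was used, but earlier results of these data were known when the genes were chosen. Of these 42, 34 had a mean of at least 1 CPM over the 6 libraries (CPM, reads scaled to the library total, the scale on which the authors' values were deposited) and entered the tests with 13761 genes in all. The 8 below that level were IFNB1, IFNL1, DHX58, IFITM1, MX2, BST2, IFI27 and XAF1, and they are described by their reads alone. IFI44L and MX1 were the members that reached the level only with the T24 control included, and 32 of the 34 reached it over the other 5 libraries.

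Cells detect foreign or misplaced RNA with cytoplasmic helicases, and the signal from these sensors switches on the genes of type I and type III interferons. Secreted interferon then binds receptors on the same or neighbouring cells, and a complex that includes STAT2 and IRF9 enters the nucleus and binds a short element, the interferon-stimulated response element, before its target genes. The products of those genes degrade viral RNA, block its translation, trap virus at membranes or attach the ubiquitin-like protein ISG15 to other proteins. Several of the sensors and factors are themselves induced, so that the response feeds itself.

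T24 and UM-UC-3 are established lines of human bladder carcinoma. In each line, cells received siRNA-1, siRNA-2 or a negative control for 48 h, with 0.04 OD of siRNA per treatment. Each combination of line and treatment gave 1 library, so the siRNA group of a line held 2 libraries with different siRNAs and the control group held 1. The sample labels name neither the target of the siRNAs nor the make-up of the negative control, so the silenced factor and exposure to siRNA cannot be told apart. HSF1, the master regulator of the heat shock response, is named in the title of the study and in column names of the UM-UC-3 values.

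Library totals lay between 23709089 and 28504833 reads, and 1 read was worth 0.0351 to 0.0422 CPM. HSF1 stood at 20.3 and 22.7 CPM in the T24 siRNA libraries against 106 CPM in the T24 control. The UM-UC-3 siRNA libraries held 50.3 and 36.5 CPM against 138 CPM in their control, so its level followed the labels in both lines. The keratin KRT18 was present in every library (285 to 335 CPM in T24, 186 to 250.1 CPM in UM-UC-3), as was the mesenchymal filament VIM. Other keratins differed: KRT8 stood at 492 to 795 CPM in T24 and 24.2 to 29.1 CPM in UM-UC-3. KRT7 stood at 1.92 to 7.63 CPM in T24 and 0.702 to 1.6 CPM in UM-UC-3. KRT19 and KRT20 held at most 6 reads and the basal factor TP63 at most 8 reads in any library, and KRT5 was not listed. The epithelial markers EPCAM and CDH1 held at most 5 reads and the uroplakins, markers of differentiated urothelium, at most 11 reads in any library. The urothelial factor PPARG stood at 5.75 to 16.1 CPM in T24 and 1.36 to 2.42 CPM in UM-UC-3, and GATA3 had at most 6 reads in T24 and 27 to 31 reads in UM-UC-3.

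The start sites of these genes show what the members share beyond their name. The interferon-stimulated response element was sought as GAAA, any 2 bases and GAAA again, on both strands in the 250 bases before each start site. In RefSeq promoters (GRCh38.p14, matched by symbol because the deposited values carry no coordinates and come from another build), 34 of the 42 members had an entry and 18 of those 34 (52.9%) held at least 1 match, against 1061 of 35116 promoters (3.02%). GAA, TTC and GAA with any 2 bases between each, a form of the element that HSF1 binds, were found in 155 of 35116 promoters (0.441%) and in 0 of the 34 members. A match is a description of the letters in this window and not evidence of binding. The windows below are written 5′ to 3′ on the strand of the gene, with every match that lies wholly in the window in capitals. They are shown for the 8 matched members that were at least 2-fold lower in both T24 siRNA libraries, and then for IFIT5 and SAMD9, which carry the same letters and were not.
IFIT1, chr10:89392497-89392526, plus strand: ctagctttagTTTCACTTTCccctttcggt
IFIT3, chr10:89327831-89327860, plus strand: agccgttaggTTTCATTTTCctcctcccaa
IFI44, chr1:78649759-78649788, plus strand: gggcacactgagTTTCAGTTTCctttctct
IFI44L, chr1:78620274-78620303, plus strand: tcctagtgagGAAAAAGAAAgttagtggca
ISG15, chr1:1013374-1013403, plus strand: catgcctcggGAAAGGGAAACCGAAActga
ISG20, chr15:88638937-88638966, plus strand: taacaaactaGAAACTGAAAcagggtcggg
HERC5, chr4:88456984-88457013, plus strand: ctcattacagTTTCCTTTTCCTTTTCgatt
IFIH1, chr2:162318824-162318853, minus strand: gagaattcgcTTTCCTTTTCTGTTTCccgc
IFIT5, chr10:89414513-89414542, plus strand: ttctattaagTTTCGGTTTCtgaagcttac
SAMD9, chr7:93118096-93118125, minus strand: tctgagaaatGAAACTGAAAccaaacctat

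The windows of IFIH1, HERC5 and ISG15 hold 2 overlapping matches each, and the others 1. The match farthest from the start site ran from -164 to -155 in IFI44L, from -159 to -150 in IFIH1, from -116 to -107 in IFIT1, from -113 to -104 in ISG15 and from -18 to -9 in IFI44. IFIH1 and HERC5 held 3 matches in the 250 bases, ISG20, IFI44 and SAMD9 held 1 and the others shown held 2. RSAD2 and CMPK2, which were at least 2-fold lower in T24, held no match in this window, and the promoters of OASL, OAS2 and IFIT2 were not searched. The letters therefore occurred among members on either side of the 2-fold limit.

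In T24 the summed level of the antiviral genes was below the control in both siRNA libraries, and 13 of the 42 carried most of that difference. The 42 members together held 1489 CPM (95% exact Poisson interval 1475 to 1504) with siRNA-1 and 1097 CPM (1085 to 1110) with siRNA-2, against 2662 CPM (2641 to 2683) in the T24 control. The 13 members at least 2-fold lower in both siRNA libraries, chosen by that change so that their sums are a description, held 213.6 and 113.4 CPM against 1263 CPM in the control, 16.9% and 8.98% of it, while the other 29 held 1276 and 984.1 CPM against 1399 CPM. Over all 42 members, 29 were below the control in both siRNA libraries, 4 were above it in both, 8 were split between the siRNAs and 1 was not listed in every T24 library. Of the 34 tested members 22 were below it in both, against 29.6% of all genes tested, and 4 above it in both, against 38.1%. Intervals of levels and ratios cover counting error only. In bulk libraries fewer cells that make an RNA and less of it per cell cannot be told apart.

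**Figure D1:**
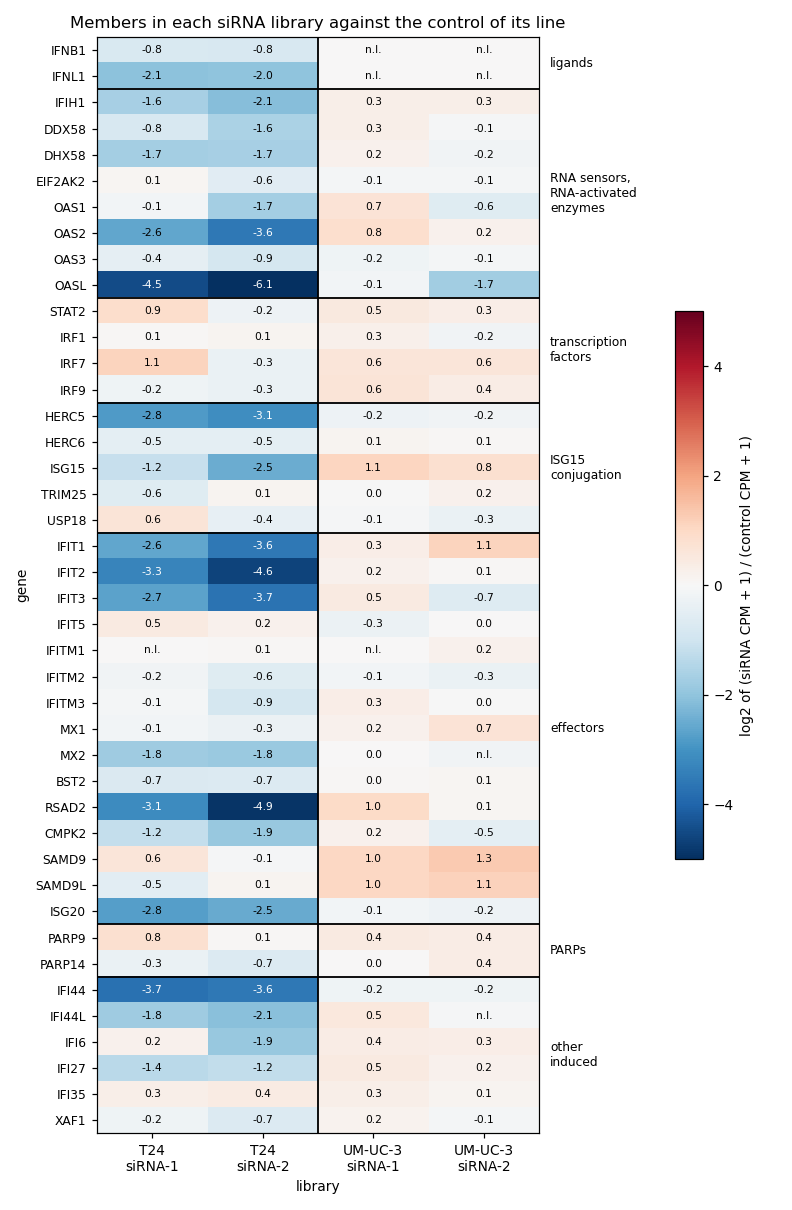
Each row is a member, grouped by role, and each column an siRNA library. Colour and number give log2 of (siRNA CPM + 1) over (control CPM + 1) of the same line, blue for lower and red for higher, and n.l. marks a gene not listed in that library and drawn as 0. OASL reads -4.5 and -6.1 in T24, and SAMD9 reads 1.0 and 1.3 in UM-UC-3.

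The interferon genes themselves were read mainly in the T24 control. IFNB1, which encodes interferon beta, had 1 and 0 reads in the T24 siRNA libraries against 18 reads in the control. IFNL1, which encodes interferon lambda-1, had 0 and 1 reads against 75 reads. The siRNA-1 library held at most 0.0432 times the IFNL1 level of the control (upper bound of the exact 95% interval), and siRNA-2 held 0.0118 times that level (0.000295 to 0.0679). Neither ligand was listed in UM-UC-3. Of 19 other interferon genes searched, 4 were listed. The lambda interferons IFNL2 and IFNL3 had the same order in T24, with 0 and 0 reads against 33 and with 1 and 0 reads against 19. IFNE, an interferon of epithelia, ran the other way at 39 and 22 reads against 9. All of these lay below the level of the tests.

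Among the sensors and RNA-activated enzymes, 7 of 8 members were below the control in both T24 siRNA libraries, and EIF2AK2 was split. The share over all genes tested was 29.6%, and DHX58, counted among the 7, lay below the level of the tests. IFIH1, the MDA5 sensor of long double-stranded RNA, stood at 40.8 and 28.9 CPM in the T24 siRNA libraries against 129 CPM in the control. Both libraries lay well below the control, at 31.5% (ratio 0.294 to 0.338) and 22.4% (0.206 to 0.242). DDX58, the RIG-I sensor of short and triphosphate-bearing RNA, had 112 and 65.9 CPM against 199 CPM, and with 56.5% in its higher siRNA library it stood just outside the 2-fold limit. DHX58, which encodes LGP2, a helicase that modulates both sensors, had 9 and 9 reads against 77 reads.

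The oligoadenylate synthetases make a second messenger in answer to double-stranded RNA, and their levels differed within the family. OAS2 stood at 1.74 and 0.411 CPM with siRNA against 15.8 CPM in the T24 control, 11% and 2.61% of it. OASL, a relative without synthetase activity that enhances RIG-I signalling, stood at 3.62 and 0.523 CPM against 101 CPM, 3.59% and 0.52% of it. The 2 siRNA libraries of both genes lay far below the control and also apart from each other, siRNA-2 being the lower. OAS3 kept 73.5% and 54.2% of its control level, and OAS1 90.8% with siRNA-1 and 21.9% with siRNA-2. EIF2AK2, which encodes the kinase PKR that halts translation on double-stranded RNA, was at 107% and 66.7%. OAS1, OAS3 and OAS2 are neighbours on chromosome 12, and among them only OAS2 was at least 2-fold lower in both siRNA libraries.

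The 4 transcription factors carry the signal to the other members. None of them was at least 2-fold lower in both T24 siRNA libraries. STAT2 stood at 112 and 50.6 CPM against 60.3 CPM in the control, 185% and 83.9% of it. IRF7, the factor that amplifies interferon transcription, stood at 75.5 and 26.6 CPM against 34.0 CPM, 222% and 78.1%. For both, the control lay between the siRNA libraries. IRF1 was within 111% of its control in both libraries, at 26.7 and 28.1 CPM against 25.5 CPM. IRF9 was low throughout, at 0.941 and 0.785 CPM against 1.22 CPM, and 39.1% of the 100-base words of its transcripts are shared with an overlapping annotated gene, so its level is uncertain.

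The ISG15 system attaches and removes this ubiquitin-like tag. ISG15 itself stood at 60.7 and 23.7 CPM with siRNA against 138 CPM in the T24 control. HERC5, the main ligase for ISG15 in human cells, stood at 23.9 and 19.2 CPM against 174 CPM. Both siRNA libraries were below the control for both genes, ISG15 at 44.0% and 17.2% and HERC5 at 13.7% and 11%, and ISG15 was the member nearest to the 2-fold limit from inside. HERC6, the neighbour of HERC5 on chromosome 4 and the ISG15 ligase of mouse cells, was at 70.2% and 69.9%. USP18, which removes ISG15 and restrains the interferon receptor, was at 160% and 73.9%, and 15.4% of its words are shared with USP41. TRIM25, a ubiquitin ligase that acts with RIG-I, was at 66% and 111%.

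The effectors held 6 of the 13 strongly lower genes. IFIT1, which binds viral RNA whose cap lacks the host's methyl mark, stood at 25.1 and 12.1 CPM in the T24 siRNA libraries against 156 CPM in the control. IFIT2, its partner in the same complex, stood at 27.0 and 10.3 CPM against 276 CPM. IFIT3, which stabilises that complex, stood at 17.3 and 8.19 CPM against 117 CPM. All siRNA libraries of these genes were at 16.1% of the control or less, and siRNA-2 was the lower for each. IFIT5, which lies next to IFIT1 and binds triphosphate-bearing RNA, stood at 27.8 and 23.4 CPM against 19.8 CPM and so was above the control in both libraries.

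RSAD2 encodes viperin, which makes a nucleotide that ends viral RNA chains. It stood at 3.98 and 0.449 CPM with siRNA against 42.5 CPM in the T24 control, 9.37% and 1.06% of it. CMPK2, a mitochondrial nucleotide kinase, stood at 1.41 and 0.486 CPM against 4.51 CPM. The spans of these 2 genes overlap on chromosome 2, so reads of one could have been assigned to the other; the sources used here do not say whether the counting used strand. ISG20, an exonuclease that degrades viral RNA, stood at 2.1 and 2.66 CPM against 20.03 CPM, and here siRNA-1 was the lower library.

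The GTPases and membrane proteins ranged from a few reads to well-read genes. MX2 had 1 and 0 reads against 61 reads in the T24 control, while its neighbour MX1 stood at 0.941 and 0.748 CPM against 1.14 CPM. BST2, the tetherin that holds budding virus, had 3 and 4 reads against 20 reads. The IFITM proteins block viral entry: IFITM3 stood at 62.7 and 36.3 CPM against 68.0 CPM, IFITM2 at 0.688 and 0.224 CPM against 0.886 CPM, and IFITM1 at no more than 1 read. The IFITM genes share 17.1% to 27.5% of their words with one another or other genes, so reads could have been split or dropped. SAMD9 and SAMD9L, neighbours that restrict poxviruses and cell growth, were at 151% and 95.7% and at 66.9% and 109% of the control. PARP9 and PARP14, which add ADP-ribose to proteins, were at 180% and 104% and at 78.9% and 62.3%.

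The remaining induced genes have less settled roles. IFI44, a cytoplasmic protein, stood at 5.43 and 6.13 CPM in the T24 siRNA libraries against 85.0 CPM in the control. Its neighbour IFI44L stood at 0.615 and 0.299 CPM against 4.6 CPM. Both libraries were at 7.21% of the control or less for IFI44 and at 13.4% or less for IFI44L. IFI27 had 13 and 16 reads against 66 reads. IFI6, a membrane protein that protects cells from death, was at 118% with siRNA-1 and 25.2% with siRNA-2. IFI35 was at 125% and 136%, and XAF1, a pro-apoptotic protein, had 13 and 2 reads against 17 reads.

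**Figure D2:**
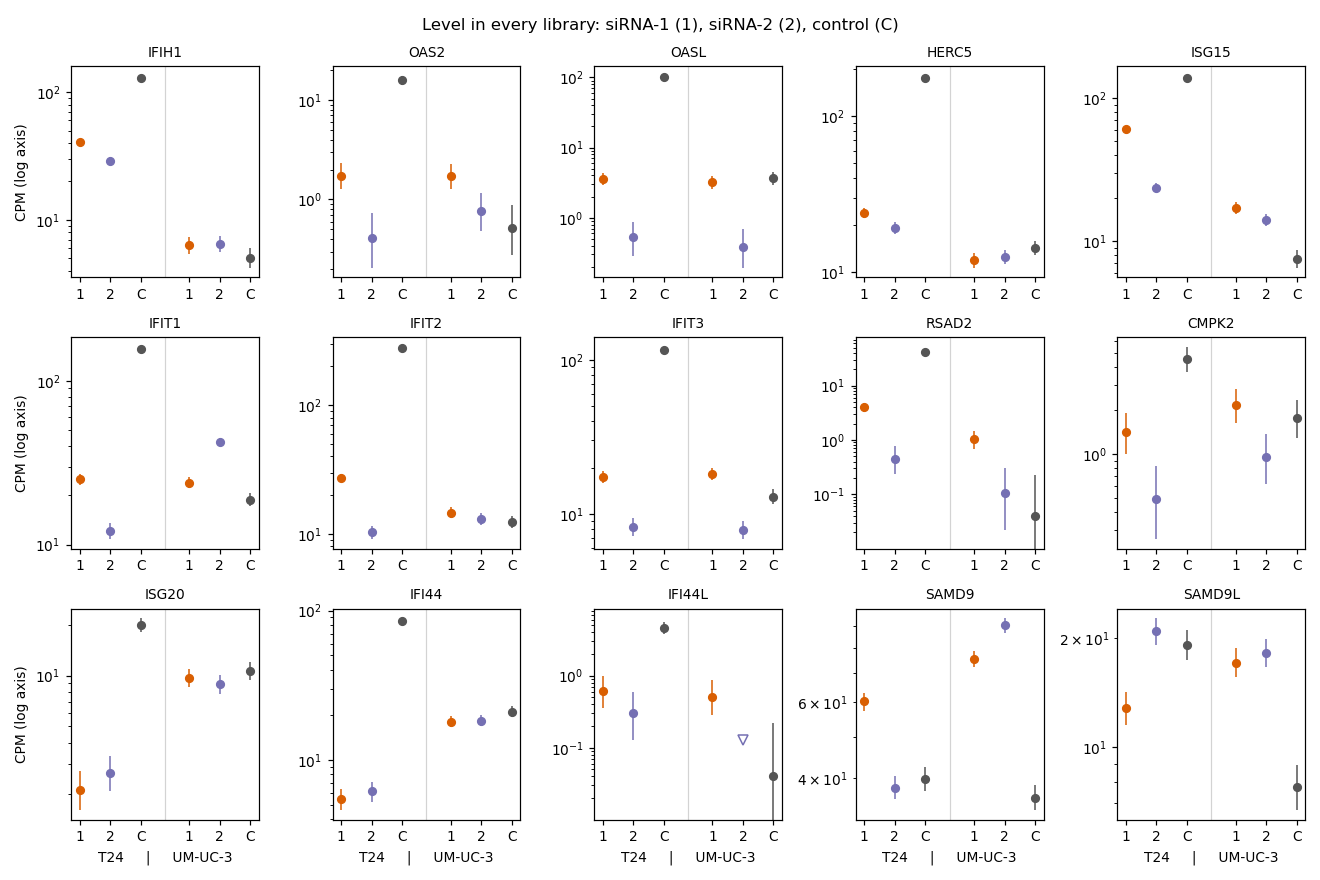
CPM on a log axis in the 6 libraries for the 13 members at least 2-fold lower in both T24 siRNA libraries and for SAMD9 and SAMD9L. Points are single libraries (siRNA-1 orange, siRNA-2 purple, control grey), bars are exact 95% Poisson intervals, cut off at the lower edge for RSAD2 and IFI44L, and an open triangle is the upper limit of an unlisted value. For the 13, the T24 control stands alone at the top, as at 276 CPM for IFIT2.

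Set against all genes, the T24 pattern was frequent among the members and the replicate test did not pass it. Among the 31 members with at least 100 reads in a T24 library, 19 were below the control in both siRNA libraries, against 28.1% of 11357 such genes, and 4 above it in both, against 40.6%. Of the same 31, 13 were at least 2-fold lower in both siRNA libraries, against 4.44% of these genes, and 0 were at least 2-fold higher, against 2.15%. Of these 13, OAS2, ISG20, CMPK2 and IFI44L reached 100 reads in the control alone, the library where they were high, so this count is a description. In limma-trend on log2(CPM + 1), whose residual spread is that of the 2 siRNA libraries of a line about their mean, 0 of 34 members and 0.0% of 13761 genes passed a Benjamini-Hochberg adjusted p of 0.05. With the siRNA number as a replicate block, 14 of 34 members and 621 genes (4.51%) passed. The block assumes that a number means the same reagent in both lines, which the labels do not state. The residual spread of that fit is only how the gap between the siRNAs differs between the lines. Without the block, 14 of 34 members were lower at an unadjusted p under 0.05, against 6.71% of genes, and 0 higher, against 5.33%. DESeq2 on the recovered reads called 10 of 31 members lower, against 2.04% of 13494 genes, and 0 higher, against 0.348%. edgeR called 0 genes.

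The fitted log2 changes of these 13 members ran from -5.26 for OASL (SE 0.88, limma-trend adjusted p = 0.262) to -1.54 for CMPK2 (SE 0.44, adjusted p = 0.334), on a scale that understates the change of low genes. The smallest adjusted p of a member was that of IFI44 (-3.67, SE 0.31, limma-trend adjusted p = 0.137, DESeq2 adjusted p = 5.07e-17), with both libraries lower. HERC5 followed at -2.97 (SE 0.32, limma-trend adjusted p = 0.151, DESeq2 adjusted p = 6.85e-12). The 10 members past the DESeq2 threshold were IFI44, HERC5, IFIT2, ISG20, IFIT1, OASL, IFIT3, IFIH1, OAS2 and RSAD2, each with both libraries lower. ISG15 (DESeq2 adjusted p = 0.0705) and CMPK2 (DESeq2 adjusted p = 0.281) missed it, and IFI44L had no adjusted value. The median over the 34 tested members was -0.58, against 0.05 over all genes tested. It was -0.88 without siRNA-1 and -0.47 without siRNA-2.

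These differences rest on 1 library, the T24 control. It was the highest of the 6 libraries for 25 of 42 members and for 18 of the 34 tested ones, against 14.9% of all genes tested. It was at least 2-fold above each of the other 5 libraries for 12 of the 34, against 1.5% of genes. Without it no T24 comparison can be fitted, and its own variation cannot be told apart from the treatment. Markers of leukocytes, which make and answer to interferon, were low: 4 of 10 were listed, summing to 1.01 and 3.29 CPM in the T24 siRNA libraries against 2.28 CPM in the T24 control. ITGAM, the 1 of them that entered the tests, had 15 and 74 reads with siRNA against 29 in the T24 control. In UM-UC-3 it had 23 and 49 reads against 24. PTPRC, the pan-leukocyte marker, had 6 and 6 reads against 4 in T24, and markers not listed included CD3E, CD68, LYZ, CLEC4C and LILRA4. Endothelial and fibroblast markers summed to at most 1.35 and 3.81 CPM in T24 and to at most 4.4 and 13.65 CPM in UM-UC-3. The fibroblast marker COL1A1 stood there at 7.92 and 12.31 CPM with siRNA against 2.44 CPM in the control.

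In UM-UC-3 the summed level of these genes was above the control in both siRNA libraries. The 42 members held 1086 CPM (1074 to 1099) with siRNA-1 and 1085 CPM (1073 to 1098) with siRNA-2 against 965.8 CPM (954 to 978) in the UM-UC-3 control, and the 13 genes strongly lower in T24 held 128.3 and 125.6 CPM against 108.8 CPM. Of the 25 members with at least 100 reads in a UM-UC-3 library, 6 were below the control in both siRNA libraries, against 30.7% of 11443 such genes, and 12 above it, against 39.8%. None of these members was at least 2-fold lower in both siRNA libraries, against 0.35% of genes, and 2 were at least 2-fold higher, against 1.4%. These were the neighbours SAMD9 and SAMD9L. SAMD9 stood at 75.8 and 90.4 CPM with siRNA against 36.1 CPM in the UM-UC-3 control, and SAMD9L at 17.1 and 18.2 CPM against 7.76 CPM. Both siRNA libraries lay above the control for both genes. Neither passed limma-trend (fitted log2 change 1.18, SE 0.38, and 1.09, SE 0.39, adjusted p = 1.0 for each).

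Of the 13 genes strongly lower in T24, 5 had both siRNA libraries near the control in UM-UC-3. IFI44 stood at 18 and 18.2 CPM with siRNA against 21.0 CPM in the UM-UC-3 control, HERC5 at 11.9 and 12.5 CPM against 14.2 CPM, and ISG20 at 9.75 and 8.88 CPM against 10.7 CPM. IFIT2 stood at 14.6 and 13.1 CPM against 12.4 CPM, and IFIH1 at 6.30 and 6.46 CPM against 5.04 CPM. The siRNA libraries of these 5 genes were within 83% to 128% of the control, and the other 8 varied more. ISG15 stood at 17.1 and 14.1 CPM against 7.56 CPM, above the control in both libraries.

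Others differed between the siRNAs in UM-UC-3. IFIT1 stood at 23.9 and 42.4 CPM against 18.8 CPM, 127% and 225% of the control. IFIT3 stood at 18.1 and 7.86 CPM against 12.9 CPM, and OASL at 3.19 and 0.386 CPM against 3.64 CPM, so that siRNA-2 was the lower library for both. OAS2 had 1.72 and 0.772 CPM against 0.520 CPM, CMPK2 2.16 and 0.947 CPM against 1.76 CPM. RSAD2 had 28 and 3 reads against 1 read, a ratio for siRNA-1 of 25.7 with an interval from 4.24 to 1049, and IFI44L had 14 reads with siRNA-1, none listed with siRNA-2 and 1 in the control. Limma-trend called 0 members and 0 genes in UM-UC-3, with 0 members lower (0.908% of genes) and 2 higher (2.45%) at an unadjusted p under 0.05. DESeq2 called 0 members, and 1 gene lower (0.00727%) and 2 higher (0.0145%). The median over the tested members was 0.15, against 0.04 over all genes.

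**Figure D3:**
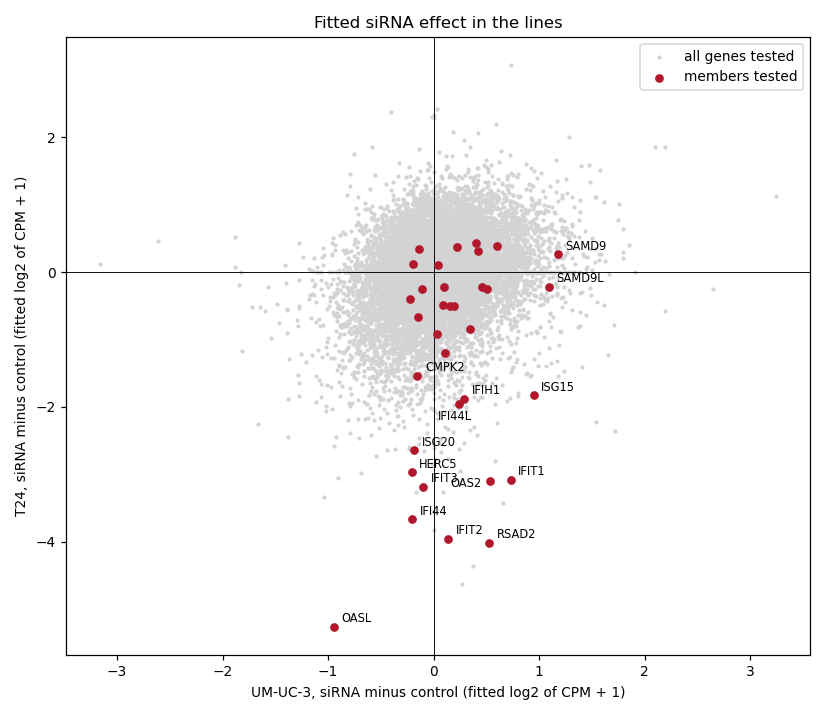
Fitted log2 difference between siRNA and control libraries in T24 (vertical axis) against that in UM-UC-3 (horizontal axis) for all genes tested (grey) and the members tested (red). IFI44 lies at -3.67 in T24 and -0.20 in UM-UC-3 and OASL, the lowest, at -5.26 and -0.95, while ISG15 lies at 0.95 in UM-UC-3.

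The difference of the siRNA effect between the lines was tested directly. Its median over the tested members was -0.93, T24 minus UM-UC-3, against -0.02 over all genes tested. Limma-trend called 0 members and 0 genes, and 9 of 34 members and 54 genes (0.392%) with the replicate block. At an unadjusted p under 0.05, 12 of 34 members had a lower effect in T24, against 3.47% of genes, and 0 a higher one, against 1.49%. IFI44 had a difference of -3.46 (SE 0.44, limma-trend adjusted p = 0.628, DESeq2 adjusted p = 1.94e-06), with both siRNA libraries below the control in either line. HERC5 had -2.76 (SE 0.45, limma-trend adjusted p = 0.841, DESeq2 adjusted p = 0.000461). DESeq2 called 5 of 30 members with an adjusted value, IFI44, HERC5, IFIT2, IFIT1 and ISG20, as lower in T24, against 0.26% of 12693 genes, and 0 as higher, against 0.0236%. Both siRNA libraries below the control in T24 and above it in UM-UC-3 were found for 10 of 34 members, against 8.65% of genes. Over both lines together the median was -0.28, against 0.06 over all genes, and 0.125 without the T24 control. Limma-trend called 0 members and 0 genes there, with 6 members lower at an unadjusted p under 0.05 (4.5% of genes) and 1 higher (4.99%). DESeq2 called IFI44 lower (adjusted p = 0.0253) and no other member, against 0.436% of genes lower and 0.225% higher.

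The siRNAs themselves differed in how low the genes stood. In T24, siRNA-2 was below siRNA-1 for 28 of 34 members, against 56.4% of genes, and at least 2-fold below it for 15, against 11.6%. In UM-UC-3 it was below for 21 of 34, against 47.1%. It was at least 2-fold below siRNA-1 in both lines for 7 members, against 1.53% of genes, namely OAS1, OAS2, OASL, IFIT3, RSAD2, CMPK2 and IFI44L. OAS1 stood at 1.76 CPM with siRNA-2 and 7.27 CPM with siRNA-1 in T24, and at 1.86 CPM with siRNA-2 and 6.05 CPM with siRNA-1 in UM-UC-3. The ratio of siRNA-2 to siRNA-1 was 0.242 (0.172 to 0.333) in T24 and 0.307 (0.221 to 0.421) in UM-UC-3, with a fitted log2 difference of -1.44 (SE 0.34, limma-trend adjusted p = 0.119). OASL had ratios of 0.145 in T24 and 0.121 in UM-UC-3 (fitted -1.6, SE 0.81, limma-trend adjusted p = 0.476). RSAD2 had 0.113 and 0.103 (fitted -1.33, SE 0.85, limma-trend adjusted p = 0.595).

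For other members the ratio of the siRNAs was farther from 1 in T24. IFI6 stood at 12.7 CPM with siRNA-2 and 59.2 CPM with siRNA-1 in T24, a ratio of 0.215, with 4.84 CPM (siRNA-2) and 4.98 CPM (siRNA-1) in UM-UC-3, a ratio of 0.971. IRF7 had a ratio of 0.352 in T24 and 1.01 in UM-UC-3, and STAT2 0.453 and 0.894. By contrast IFIT1 was lower with siRNA-2 in T24 and higher with it in UM-UC-3, with a ratio of 0.483 in T24 and 1.77 in UM-UC-3. Whether the ratios differ between the lines cannot be tested with 1 library of each siRNA per line. Over both lines limma-trend called 0 of 34 members and 14 genes (0.102%) between the siRNAs, with 2 members lower (5.79% of genes) and 0 higher at an unadjusted p under 0.05, and DESeq2 called 0 of 28 members, against 1.0% of genes lower and 1.02% higher. Leaving out 1 library left a single library of 1 treatment, and the number of genes called then varied widely. HSF1 stood at 22.7 CPM with siRNA-2 and 20.3 CPM with siRNA-1 in T24, with 36.5 CPM (siRNA-2) and 50.3 CPM (siRNA-1) in UM-UC-3, and its part in these differences was not tested.

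**Figure D4:**
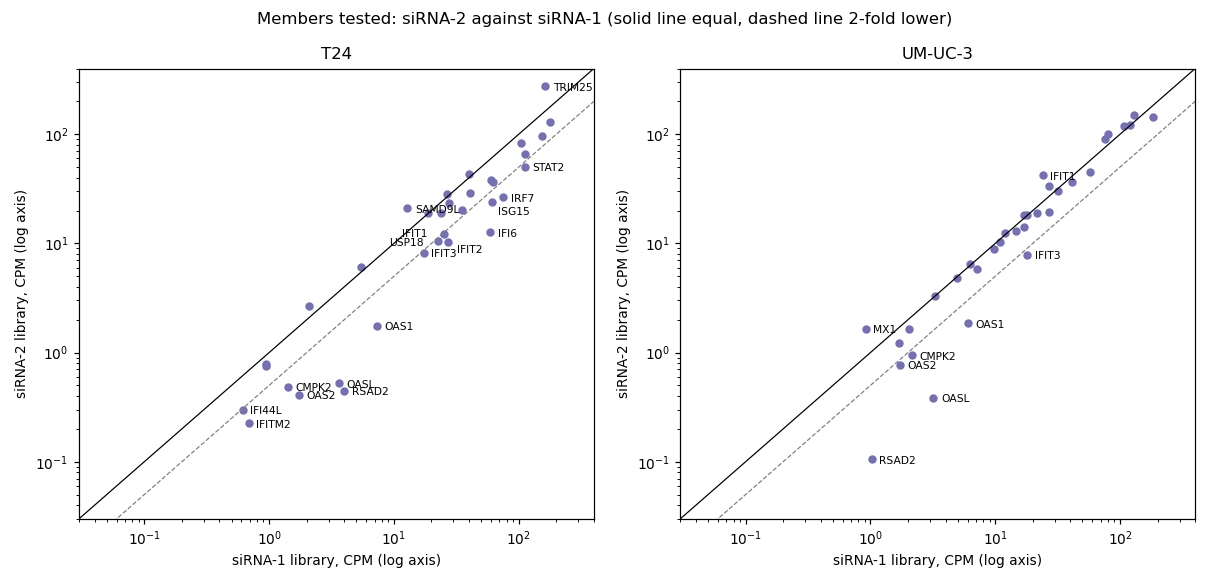
CPM with siRNA-2 (vertical, log axis) against CPM with siRNA-1 (horizontal, log axis) for the members tested, T24 at left and UM-UC-3 at right. The solid line marks equal levels and the dashed line a level 2-fold lower with siRNA-2; members unlisted in a library are not drawn. OAS1, OAS2, OASL, RSAD2, IFIT3 and CMPK2 lie below the dashed line in both panels.

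Between the lines the share of members called was near that of all genes. With treatment as a term, limma-trend called 15 of 34 members between T24 and UM-UC-3, against 47.9% of genes. Of these, 13 were higher in T24 (24.9% of genes) and 2 lower (23.0%). IRF7 stood at 75.5, 26.6 and 34.0 CPM in T24 (siRNA-1, siRNA-2, control) against 3.30, 3.33 and 1.84 CPM in UM-UC-3, and all 3 T24 libraries were above all 3 of UM-UC-3 (log2 difference 3.48, SE 0.30, limma-trend adjusted p = 3.34e-06). IFIH1 (2.98, adjusted p = 8.82e-05), IFI6 (2.68, adjusted p = 0.00019), RSAD2 (2.36, adjusted p = 0.0157) and ISG15 (2.17, adjusted p = 0.003) were higher in T24 as well by limma-trend. The 8 others that were higher were DDX58, OAS3, STAT2, HERC5, HERC6, TRIM25, USP18 and IFI35. RSAD2 (adjusted p = 0.075) and OAS3 (adjusted p = 0.0598) missed the threshold by DESeq2, which also called IFI44L (adjusted p = 0.007).

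The entry-blocking IFITM3 went the other way. It stood at 62.7, 36.3 and 68.0 CPM in T24 against 184, 144 and 146 CPM in UM-UC-3, and every T24 library was below every UM-UC-3 library (log2 difference -1.53, SE 0.23, limma-trend adjusted p = 0.000251). IFITM2 was also lower in T24 (-0.93, SE 0.23, limma-trend adjusted p = 0.0062). All 3 T24 libraries lay above all 3 UM-UC-3 libraries for 12 of 34 members, against 27.6% of genes, and below them for 2, against 25.2%. The median log2 difference over the 34 members was 0.65, and it was 0.11 without the T24 control or without the UM-UC-3 control. T24 was at least 2-fold above UM-UC-3 for 8 of 34 members with siRNA-1 (20.8% of genes), for 6 with siRNA-2 (18.2%) and for 19 in the controls (19.7%). The 13 genes strongly lower in T24 summed to 213.6 and 113.4 CPM in its siRNA libraries, beside 128.3 and 125.6 CPM in the siRNA libraries and 108.8 CPM in the control of UM-UC-3. Since these 13 were chosen by the T24 contrast, this sum is a description.

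The rest of the pathway was read through 4 further lists, chosen by function. Limma-trend called 0 of their genes between siRNA and control in either line, and 0.0% of all genes tested. For receptors, kinases, factors and feedback genes the T24 median was -0.05 over 19 tested genes. SOCS3, a feedback inhibitor of cytokine receptors, stood at 49.6 and 44.8 CPM with siRNA against 90.2 CPM in the T24 control. SOCS1, a related inhibitor of cytokine signalling, was on the other side, at 5.10 and 2.58 CPM against 1.01 CPM (log2 difference 1.22, SE 0.38, limma-trend adjusted p = 0.352). Of 16 list genes with at least 100 reads, SOCS1 alone was at least 2-fold higher in both siRNA libraries, against 2.15% of such genes. None of the 16 was at least 2-fold lower in both, against 4.44%. SOCS1 reached 100 reads with siRNA-1 alone, the library where it was highest (141 and 69 reads against 24), so this count is a description. IFNLR1, the receptor chain particular to lambda interferons, stood at 10.1 and 4.75 CPM against 11.3 CPM in T24 and was not listed in UM-UC-3. IRF2 (17.5 and 24 CPM against 33.3 CPM) and IRF5 (1.77 and 1.94 CPM against 3.67 CPM) had both siRNA libraries below the T24 control.

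For nucleic acid sensing upstream of interferon the T24 median was -0.15 over 16 tested genes. DESeq2 called 2 of them higher with siRNA in T24, against 0.348% of genes, and 0 lower, against 2.04%. RNF135, a ubiquitin ligase of RIG-I, stood at 15.1 and 14.2 CPM with siRNA against 4.81 CPM in the T24 control, and both siRNA libraries lay above the control. ADAR, which edits double-stranded RNA and prevents its detection, stood at 249 and 244 CPM against 491 CPM, and DDX60 at 25.4 and 10.7 CPM against 43.7 CPM. TMEM173, which encodes the DNA-sensing adaptor STING, was nearly absent in T24 (18 and 7 reads against 3 reads) and stood at 16.9 and 8.67 CPM against 26.1 CPM in UM-UC-3.

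For further interferon-stimulated genes the T24 median was 0.11 over 37 tested genes. Of 34 with at least 100 reads, 4 were at least 2-fold lower in both siRNA libraries, against 4.44% of such genes. None of the 34 was at least 2-fold higher in both, against 2.15%. CCL5, among the 4 lower, reached 100 reads in the control alone (40 and 9 reads against 859), so this count is a description. DESeq2 called 2 genes of this list lower, against 2.04% of genes, and 0 higher, against 0.348%. CCL5, a chemokine that draws lymphocytes, stood at 1.45 and 0.337 CPM with siRNA against 36.2 CPM in the T24 control (log2 difference -4.36, limma-trend adjusted p = 0.244, DESeq2 adjusted p = 4.16e-05). ZC3HAV1, a protein that marks viral RNA for decay, stood at 177 and 155 CPM against 543 CPM (-1.71, limma-trend adjusted p = 0.244, DESeq2 adjusted p = 0.000121). GCH1 followed the same order at 15.6 and 8.82 CPM against 36.3 CPM. GBP3 stood above the T24 control with both siRNAs, at 116.2 and 56.42 CPM against 43.15 CPM. HELZ2 did as well, at 274 and 264.7 CPM against 166.2 CPM. The fitted T24 change was negative for 17 of the 37 tested genes, against 6062 of 13761 genes in all. CXCL10 and CXCL11, chemokines that interferon induces, had 4 and 0 reads against 42 and 6 and 0 reads against 37, and were not listed in UM-UC-3.

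For class I antigen presentation the T24 median was 0.09 over 17 tested genes. Its genes lay on either side of the control. HLA-B, a class I heavy chain, stood at 31.8 and 22.5 CPM with siRNA against 55.4 CPM in the T24 control. TAP1, the peptide transporter, stood at 161 and 104 CPM against 61.2 CPM, and PSMB8, an immunoproteasome subunit, at 64.1 and 51.7 CPM against 35.1 CPM. In UM-UC-3 the 4 medians were 0.06, 0.15, 0.25 and 0.16 in the order given here, against 0.04 over all genes.

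**Figure D5:**
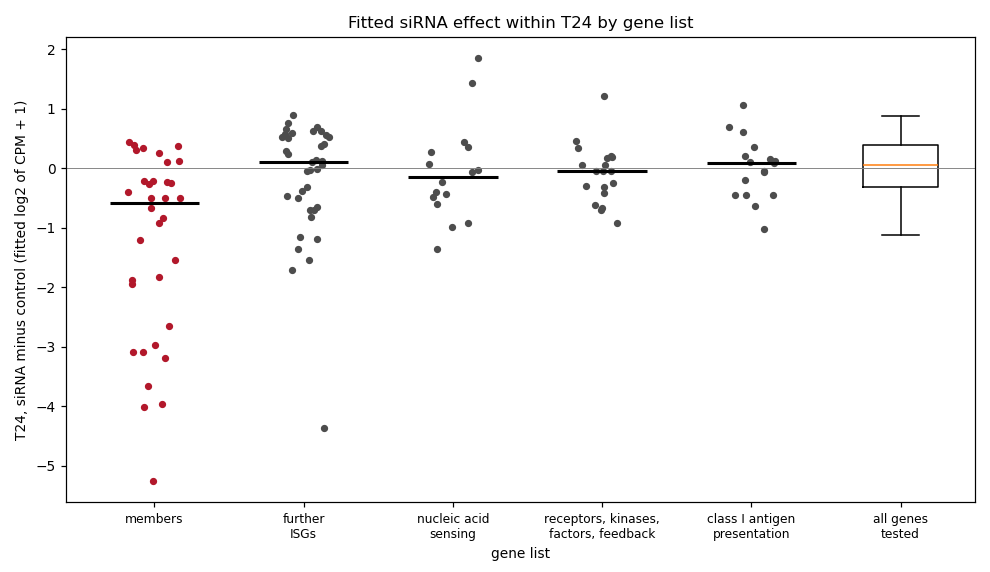
Fitted log2 difference between siRNA and control in T24 for each tested gene of the members (red) and 4 further lists (grey), with the list median as a bar and all genes tested as a box (quartiles and median, whiskers at the 5th and 95th percentile). The members reach down to -5.26 with a median of -0.58, and the medians of the other lists lie between -0.15 and 0.11.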

How the data were processed

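Total RNA of 6 libraries was sequenced, per the labels. The values deposited by the authors are normalised ones per gene, per the file headers, and were read as CPM because they sum to just under the CPM total and step in whole reads. The submitters' processing notes name bcl2fastq 2.19.1, HISAT2 2.1.0, HTSeq 0.6.1 and the builds hg19 and GRCh37, with no roles. Kit strandedness and poly(A) selection were not found among these sources.

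In each library 100% of values were whole reads, or 0.5 read, taken here as 0, within a tolerance of 0.01 read, so reads were recovered from the CPM. Values not listed, of at most 4 reads, entered as 0.

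Members were joined by Ensembl identifier. They and the other lists were chosen with earlier results of these data known. Limma-trend (limma 3.58.1, R 4.3.3) was run on log2(CPM + 1) of genes with a mean of at least 1 CPM, with Benjamini-Hochberg adjustment over all genes tested and a threshold of 0.05. A single model with a mean for each of the 4 groups gave the siRNA effect per line and its difference. Each control, being single, takes its spread in that model from the siRNA libraries. The siRNAs were compared with the line as a term, and the lines with the treatment as a term. edgeR 4.0.16 (quasi-likelihood) and DESeq2 1.42.0 on the recovered reads were alternatives, and the fits were tested on simulated data. Separate cultures are not stated in the labels, and the p-values cover only the spread among these libraries, which may be technical.

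Levels carry exact Poisson intervals and ratios of 2 libraries exact binomial intervals, at 95%. Each member was named, with values in every library where both siRNA libraries of a line differed at least 2-fold from its control in 1 direction at 100 reads or more, and elsewhere where a comparison turned on it. Of each other list, the 3 genes with the largest T24 change at a mean of at least 50 reads were named, and further genes were chosen after their values were seen. Promoter sequences are from RefSeq. Shared 100-base words were counted in GENCODE transcripts. Some genes of the lists are not reported here.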

Additional observations from a re-analysis of the deposited data

Results flagged for a closer look

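BST2 and IFI27 stood on opposite sides of the control in the lines, with both T24 siRNA libraries below it and both UM-UC-3 siRNA libraries above it. BST2, the tetherin, had 3 and 4 reads with siRNA against 20 reads in the T24 control, a log2 ratio of -2.96 for siRNA-1, and 2 and 3 reads with siRNA against 1 read in the UM-UC-3 control. IFI27, a small membrane protein strongly induced by interferon, had 13 and 16 reads with siRNA against 66 reads in the T24 control, a log2 ratio of -2.57 for siRNA-1, and 13 and 7 reads with siRNA against 2 reads in the UM-UC-3 control. For UM-UC-3 the exact 95% interval of the siRNA-1 ratio ran from 0.0954 to 108 for BST2 and from 1.35 to 54.4 for IFI27. Both genes lay below the level of the tests, so the difference between the lines was not tested.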

How the results depend on the processing

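The settings tried were pseudocounts of 0.5 and 3 CPM, no filter or a mean of at least 5 CPM, edgeR with TMM or RLE scaling, DESeq2, CPM rescaled by TMM, unlisted values at 4 reads, each library left out and a replicate block. Each of the 13 members strongly lower in T24 stayed negative there under every setting in which it was fitted. SAMD9 and SAMD9L stayed positive in UM-UC-3. These genes were chosen by the same contrast with the same control, so their signs are a description and not a test. At a mean of at least 5 CPM, 10 of the 13 entered the fit. The calls within T24 depended on the test: DESeq2 called 322 genes with 10 members, and 0 genes passed under the pseudocounts, filters, edgeR fits and rescaling. DESeq2 also called 91 genes with 1 member over both lines, 3 genes in UM-UC-3 and 36 genes with 5 members for the difference between the lines. The median of that difference was -1.21 by edgeR with TMM, -1.2 with RLE and -1.21 by DESeq2, and between -1.21 and -0.65 with a library left out. The T24 median ran between -0.88 and -0.47 with a library left out. Without the T24 control neither T24 comparison could be fitted.

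Between the siRNAs the 14 genes called became 0 with either pseudocount, without the filter, by edgeR with either scaling, after rescaling and with unlisted values at 4 reads, 33 at a mean of at least 5 CPM and 230 by DESeq2. With a library left out they ran from 0 to 450, the members called from 0 to 3, and the median of the members from -0.88 to 0.039. The median between the lines ran from 0.11 to 0.85.

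The siRNA numbers were taken to mean the same reagent in both lines, which the labels do not state, and the labels pair no cultures. The deviations of same-numbered libraries had a correlation of 0.405 across 13761 genes, from 2 pairs. With the replicate block 621 genes passed in T24 (128 higher, 493 lower) with 14 members, 4 genes passed in UM-UC-3, 54 genes with 9 members passed for the difference, and 0 over both lines. Without the block for treatment, 5480 genes and 12 members passed between the lines. The cause of these shifts was not tested. The depth limits the ligands, DHX58, MX2, BST2, IFI27, XAF1 and IFITM1, whose counts were too low to test.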

Other observations

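The lines differed in which interferon receptors they read. IFNAR2, a chain of the type I interferon receptor, had 5, 12 and 13 reads in T24 (siRNA-1, siRNA-2, control) against 199, 294 and 161 reads in UM-UC-3 (log2 difference -2.68, SE 0.25, limma-trend adjusted p = 6.06e-06). IL10RB, the other chain of the lambda interferon receptor, stood at 0.543, 1.08 and 0.591 CPM in T24 against 12.5, 12.8 and 11.7 CPM in UM-UC-3 (-2.95, SE 0.24, limma-trend adjusted p = 2.22e-06). IFNLR1, the chain that only lambda interferons use, had 279, 127 and 267 reads in T24 and was not listed in UM-UC-3. IFNAR1, the other chain of the type I receptor, overlapped between the lines, at 104, 39.9 and 80.4 CPM in T24 against 76.1, 60.3 and 78.2 CPM in UM-UC-3. Whether reads of overlapping gene models were dropped at the neighbouring IFNAR2 and IL10RB was not tested.

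Related genes could lie on opposite sides between the lines. IFI16, a DNA sensor, stood at 1.85, 1.65 and 2.24 CPM in T24 against 36.8, 30.8 and 25.9 CPM in UM-UC-3 (log2 difference -3.46, SE 0.26, limma-trend adjusted p = 9.37e-07). MB21D1, which encodes the DNA sensor cGAS, was higher in T24 (0.97, SE 0.23, limma-trend adjusted p = 0.00532). GBP2, a guanylate-binding protein, stood at 0.362, 0.71 and 1.69 CPM in T24 against 31.1, 22.8 and 9.72 CPM in UM-UC-3 (-3.45, SE 0.4, limma-trend adjusted p = 3.56e-05), and its relative GBP3 was higher in T24 (2.7, SE 0.26, limma-trend adjusted p = 8.88e-06). By limma-trend, 7 of 19 receptor, kinase, factor and feedback genes were higher and 5 lower in T24, 6 and 3 of 16 genes of nucleic acid sensing, 15 and 5 of 37 further interferon-stimulated genes, and 7 and 3 of 17 genes of class I presentation, against 24.9% of all genes tested higher and 23.0% lower, so calls of this kind are frequent between the lines. The genes named here were chosen after their values were seen.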
